A study of Arabidopsis thaliana with 204 samples.

Results

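A set of 114 genes was taken from the 33602 loci measured in Arabidopsis leaves. They were taken because their petiole transcripts differed between far-red light on the leaf tip (FRtip) and white light (WL) at 300 min of treatment. Averaged over 100 to 180 min, the treatments hardly differed. The members were chosen by their FRtip differences in the petiole, meaning the mean in FRtip minus the mean in WL of log2(normalized read count + 1), taken separately on the abaxial (lower) and adaxial (upper) side of the petiole. A member had a mean normalized count of at least 10 in the petiole, a mean difference of at most 0.15 either way over 100 to 180 min on both sides, and a difference beyond 0.5 with the same sign on both sides at 300 min. Of 15851 genes with that petiole count, 11103 were flat from 100 to 180 min and 516 were beyond 0.5 on both sides at 300 min. The 114 members met every condition, 39 of them higher and 75 lower in FRtip at 300 min. The petiole values at these times are therefore given as a description, without a test.

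All plants were Col-0 of 28 days, grown with 9 h of light and 15 h of dark at a red to far-red ratio (R/FR) of 2.0, which was also the WL control. In FRtip, supplemental far-red lowered the R/FR to 0.05 at the leaf tip, while the petiole itself received no extra far-red. Transcripts were counted in the leaf tip and in the proximal petiole split into its abaxial and adaxial side, at 60 to 180 min and 300 min (from 40 min in the tip), with 13 leaves in each sample and 4 replicates per group (3 for the leaf tip in WL at 40 min). The sources used here do not say whether leaf tip and petiole samples came from the same leaves.

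The tests used 199 samples with 805840 to 5538648 reads on genes, and the petiole samples of 300 min held 1618435 to 4220334. Organelle transcripts took 2.01 to 9.22% of the reads. Of 8 loci in the abaxial identity list, 7 were higher on the abaxial side in WL by limma, among them AFO, KAN and ARF4 by 2.62, 1.69 and 0.72 on the log2 scale, and KAN2 was lower there (−0.28). All 4 adaxial identity genes were lower on the abaxial side, from −0.13 for PHV to −1.98 for AS2. The list's ARF3 is a symbol match to an ADP-ribosylation factor, and the auxin response factor of that name is listed as ETT. Summed mesophyll markers at 300 min ran from 37471 to 52416 normalized counts in the abaxial petiole in WL and from 33970 to 41747 in FRtip. On the adaxial side they ran from 68541 to 84127 in WL and from 68257 to 81805 in FRtip, and in the leaf tip from 150749 to 185646 and from 150525 to 181727. In 4 of the other marker sums, the treatments did not overlap at 300 min. Xylem markers on the adaxial side summed to 529 to 607 in WL and 451 to 514 in FRtip, and adaxial identity genes there to 359 to 403 and 323 to 355. In the leaf tip, stomatal markers summed to 426 to 491 in WL and 507 to 600.1 in FRtip, and epidermal markers to 1035 to 1097 and 1120 to 1448. These sums also hold loci that matched by symbol or synonym and are not the marker genes meant. In the epidermal list they were FDH (AT5G14780), PP2AA2 and AT3G22480, with mean tip counts of 226, 91.5 and 62.6 in WL. Others were PKT4 in the stomatal list (73.6 in the tip in WL) and AT5G52380 in the xylem list. None of the cell type markers was a member, and the part of cell type content in the members' differences was not tested. In such bulk samples, fewer cells of a type and less RNA per cell cannot be told apart.

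Plants read a low R/FR as a sign of neighbours through phytochromes, and PIF transcription factors then promote auxin synthesis in the leaf. Auxin made in the tip travels to the petiole, where faster growth of the abaxial side lifts the leaf, a movement called hyponasty. Ethylene, ABA and gibberellin pathways and the sugar and nutrient status of the leaf also take part in shade responses.

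Members among those with the largest differences in each direction are shown by their upstream sequence, because they were found together by their timing and the DNA before the gene is where shared transcription factor motifs would lie. Each line holds the 250 bases before the annotated gene start in the TAIR10.1 assembly, read 5′ to 3′ on the gene's strand, with the letters of any motif searched in capitals.
SULTR3;1, chr3:19255923-19256172, minus strand: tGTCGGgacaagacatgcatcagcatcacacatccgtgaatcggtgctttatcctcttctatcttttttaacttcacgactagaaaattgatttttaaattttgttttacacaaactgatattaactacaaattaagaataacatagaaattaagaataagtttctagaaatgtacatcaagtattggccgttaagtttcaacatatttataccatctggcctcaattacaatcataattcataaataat
AT5G57785, chr5:23409716-23409965, minus strand: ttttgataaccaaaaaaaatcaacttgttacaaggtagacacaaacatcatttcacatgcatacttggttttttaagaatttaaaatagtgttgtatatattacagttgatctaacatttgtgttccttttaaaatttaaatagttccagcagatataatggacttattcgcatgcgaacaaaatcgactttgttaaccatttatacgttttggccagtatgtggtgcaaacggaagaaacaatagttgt
KT1, chr2:12834571-12834820, plus strand: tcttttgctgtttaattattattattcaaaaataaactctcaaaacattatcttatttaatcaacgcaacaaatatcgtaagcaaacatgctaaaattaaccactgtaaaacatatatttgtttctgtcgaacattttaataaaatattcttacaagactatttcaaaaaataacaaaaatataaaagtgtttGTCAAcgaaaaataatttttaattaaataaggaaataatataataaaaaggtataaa
AT4G16563, chr4:9331647-9331896, minus strand: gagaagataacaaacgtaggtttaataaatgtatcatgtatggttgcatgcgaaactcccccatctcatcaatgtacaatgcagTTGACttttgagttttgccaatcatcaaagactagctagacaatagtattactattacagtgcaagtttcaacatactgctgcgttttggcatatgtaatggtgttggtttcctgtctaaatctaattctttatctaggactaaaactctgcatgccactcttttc
BXL1, chr5:20016858-20017107, minus strand: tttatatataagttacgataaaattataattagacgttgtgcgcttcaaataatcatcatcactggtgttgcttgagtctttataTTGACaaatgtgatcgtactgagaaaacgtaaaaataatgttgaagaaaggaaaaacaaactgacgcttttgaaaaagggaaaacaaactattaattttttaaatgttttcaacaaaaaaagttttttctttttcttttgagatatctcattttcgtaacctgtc

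The capitals are a DRE core (CCGAC, here on the other strand) before SULTR3;1 and a W-box core (TTGAC) before KT1, AT4G16563 and BXL1, while none of the motifs lay before AT5G57785. The W-box core was found on either strand in 48.7% of the higher members, in 30.7% of the lower members and in 44.4% of 19810 genes tested with such a window. The evening element (AAAATATCT), a motif of clock-controlled promoters, was present in 5.13% of the higher and 4% of the lower members against 2.51% of those genes. For the DRE core the shares were 12.8%, 12% and 12.9%, and for the auxin response element (TGTCTC) 7.69%, 12% and 10.7%. The G-box (CACGTG), which PIF proteins bind, stood before 2.56% of the higher and 5.33% of the lower members against 7.25%, and the ABA-response motif ACGTGNC, whose letters can overlap a G-box, before 5.13% and 6.67% against 9.45%. The telo box (AAACCCTA) was in no member's window and in 3.73% of the genes. The site II element (TGGGCC) was in 10.3% of the higher and 8% of the lower members against 16.8%, and the I-box core (GATAAG) in 2.56% and 12% against 12.4%. For the CCA1-binding site (AAAAATCT) the shares were 5.13%, 6.67% and 6.78%, for the heat shock element (GAANNTTC) 2.56%, 10.7% and 9.36%, and for the GCC box (GCCGCC) 0%, 1.33% and 1.96%.

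At 300 min, the member with the largest difference was AST56 (AT1G77990), the sulfate transporter also called SULTR2;2. In the abaxial petiole it had 51.7, 50.8, 34.7 and 43.9 normalized counts in WL and 14.1, 13.2, 7.58 and 14 in FRtip. On the adaxial side it had 27.7, 27.7, 27.9 and 26.3 in WL and 7.82, 12.6, 8.39 and 8.38 in FRtip. Every FRtip sample was therefore below every WL sample on both sides, and the means were 45.3 ± 7.85 against 12.2 ± 3.11 abaxially and 27.4 ± 0.744 against 9.30 ± 2.22 adaxially (SD, n = 4). The log2 differences were −1.83 and −1.49, after 0.02 and −0.04 over 100 to 180 min.

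Another sulfate transporter, the chloroplast-located SULTR3;1 (AT3G51895), had the largest difference in the opposite direction. It had 53.1, 46, 67.1 and 43.3 normalized counts in the abaxial petiole in WL and 158, 168, 141 and 120.2 in FRtip. On the adaxial side the counts were 33.2, 49.7, 31.3 and 38 in WL and 94.8, 99.5, 108 and 100.0 in FRtip. The groups did not overlap on either side, with differences of 1.48 and 1.40.

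The potassium transporter KT1 (KUP1) showed a larger difference adaxially, 1.52, than abaxially, 0.99. Its abaxial counts were 47.4, 32.7, 51.8 and 33 in WL and 125.8, 77.5, 70.3 and 64.1 in FRtip. Adaxially they were 88.5, 60.3, 89.5 and 70.1 in WL and 281, 199, 233 and 177 in FRtip, so that the FRtip samples lay above all WL samples on both sides. AT5G14230, annotated as an ankyrin protein, was high on the abaxial side already in WL, with 178, 202, 161 and 181 counts, and reached 337, 394, 400.4 and 409 in FRtip. Its adaxial counts were 59.0, 116, 58.7 and 78.9 in WL and 187, 229, 211 and 186 in FRtip, and neither side overlapped (differences 1.09 and 1.42). AT5G57785, a gene with no annotated function, had 4.30, 9.75, 6.18 and 11.4 counts abaxially in WL and 16.3, 26.3, 27.6 and 12.4 in FRtip, while adaxially 14.8, 13.4, 15.4 and 13.9 stood against 23.5, 34, 59.6 and 51. The groups were separate on both sides, but the abaxial values rest on 6 to 40 reads.

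Among the lower members, the β-xylosidase BXL1, which trims cell wall polysaccharides, had 122, 190.1, 144 and 174 counts abaxially in WL and 39.2, 54.2, 47.6 and 44.7 in FRtip (difference −1.73). Adaxially it had 36.9, 62.2, 58.1 and 48.2 in WL and 24.4, 40.3, 26 and 22.6 in FRtip (−0.84), and there 1 FRtip sample lay above the lowest WL sample. The aspartyl protease gene AT4G16563 had 39.5, 37.6, 29.5 and 20.6 counts abaxially in WL and 9.62, 8.52, 15.2 and 12.9 in FRtip. Its groups were also separate on the adaxial side, where the counts were 11.1, 7.65, 13.7 and 12.4 in WL and 2.93, 2.52, 4.20 and 7.09 in FRtip, and the differences were −1.37 and −1.29. PGL5, a 6-phosphogluconolactonase, was lower by rule on both sides (−1.02 and −1.42), yet its abaxial counts of 12.9, 4.18, 13.8 and 2.17 in WL overlapped those of 2.96, 4.65, 0.689 and 4.31 in FRtip, which rest on 1 to 29 reads. Its adaxial counts of 24, 14.3, 12 and 13.9 in WL were all above the 4.89, 8.82, 5.88 and 2.58 of FRtip.

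**Figure D1:**
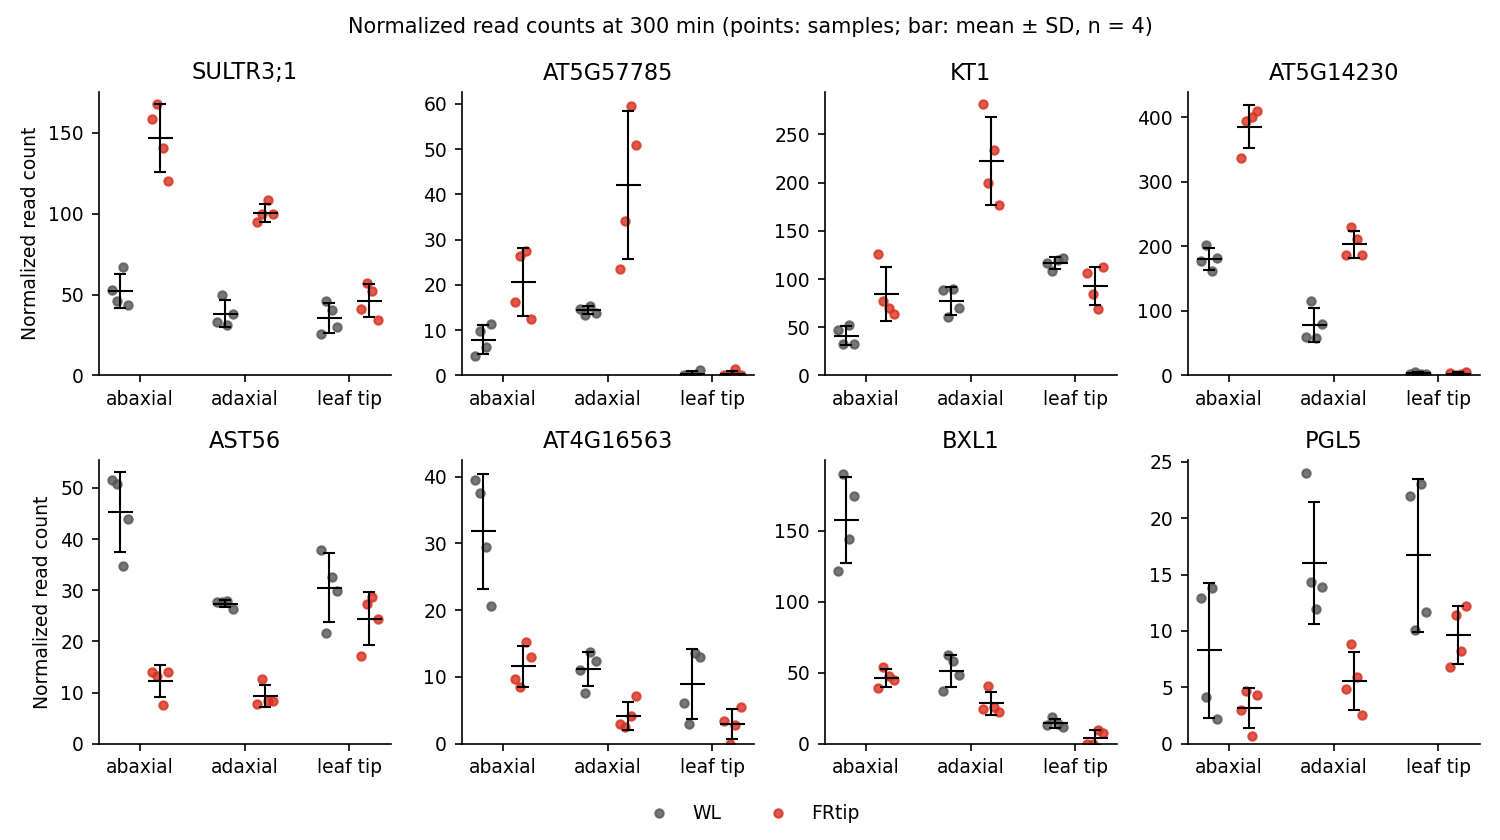
Normalized read counts at 300 min of the 4 members with the largest petiole difference in each direction (points: samples; bars: group means) on the abaxial and adaxial side and in the leaf tip, in WL and FRtip. For AST56 the petiole samples in FRtip lie below those in WL on both sides, at 7.58 to 14.1 against 34.7 to 51.7 abaxially, while the leaf tip samples overlap.

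Other members near the top of the ranking belong to known regulatory families. Among those higher were EBP (RAP2.3), an ethylene response factor (1.00 abaxially and 1.40 adaxially), LEA14, a late embryogenesis abundant protein of water stress (1.18 and 1.01), the phototropism-related NPH3 family gene AT3G49970 (0.80 and 1.25) and PIF3 (0.73 and 1.14), a phytochrome-interacting factor. For PIF3 the adaxial counts were 25.8, 22, 23.9 and 25.6 in WL and 52.8, 54.2, 59.6 and 52.2 in FRtip. Among those lower were the transcription factor gene NAC003 (−1.06 and −1.02), the DUF547 gene AT1G21060 (−1.04 and −1.01), TBL45 of a family that acetylates wall polysaccharides (−1.05 and −0.95) and AT3G23930 (−1.14 and −0.83). In all, 10 members were beyond 1 on both sides, and the abaxial difference was the larger in 59 of 114. FRtip samples did not overlap WL samples in 30 of 39 higher members on the abaxial side, where FRtip lay entirely above WL in 6.43% of all genes tested, and in 28 on the adaxial side (4.05%). Among the 75 lower members, 44 were separate abaxially (6.99% of all genes) and 45 adaxially (4.92%). The rule used this contrast, so these counts describe the choice.

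The members beside the thresholds differed little from the genes outside. At the 300-min threshold, SR and MAM1 were inside with −0.501 and −0.502 on their smaller side, and AT1G09580 and the brassinosteroid biosynthesis gene BR6OX2 were outside with 0.496 and 0.495. At the early threshold, AT2G18940 and NAP1;4 were inside with −0.1492 and −0.1490, and BZO2H3 and AT1G56660 outside with −0.1501 and −0.1506. The petiole means nearest 10 were 10.05 for AT5G01542 and 11.5 for AT3G53370 inside, and 9.96 for AT5G59740 and 9.90 for RING1 outside. A further 550 flat genes passed 0.5 at 300 min on 1 side only, 372 of them abaxially and 178 adaxially, and 3 had opposite signs.

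Over time, the median differences of the members stayed near 0 from 60 to 160 min and had begun to move at 180 min. The 39 higher members had a median of 0.17 abaxially and 0.14 adaxially at 180 min, with 33 and 29 of them above 0, and of 0.68 and 0.64 at 300 min. The 75 lower members had medians of −0.19 and −0.15 at 180 min, with 61 below 0 on each side, and of −0.70 and −0.70 at 300 min. The 180-min values entered the mean that the rule kept small, so members that moved further by then were not taken.

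The rule forced FRtip and WL to move apart between these times but did not set which of them moved. In most members the larger movement was in FRtip, given here as a description without a test. Between 100 to 180 min and 300 min, the higher members rose in FRtip by a median of 0.63 abaxially and 0.62 adaxially and moved in WL by −0.16 and −0.06. The lower members moved in FRtip by −0.91 and −0.82 and in WL by −0.17 and −0.18. WL moved more than FRtip in 7 of the higher members on each side, and in 6 abaxially and 8 adaxially of the lower ones. In SULTR3;1, for instance, the adaxial level fell by 0.84 in WL and rose by 0.50 in FRtip, whereas AST56 moved by −0.18 in WL and −1.63 in FRtip on that side.

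**Figure D2:**
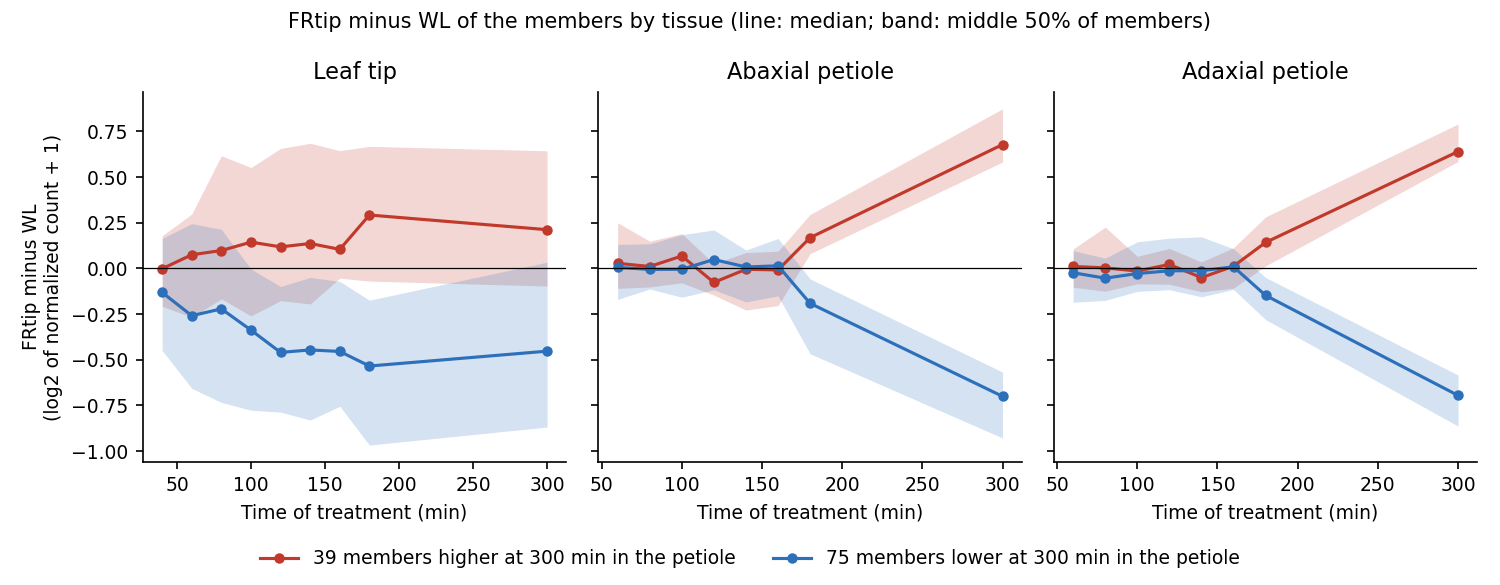
FRtip minus WL on the log2 scale against time of treatment in minutes, for the members higher (39) and lower (75) in the petiole at 300 min, on the abaxial and adaxial side and in the leaf tip (line: median; band: middle 50% of the members). The petiole medians lie near 0 until 160 min and reach 0.68 and −0.70 abaxially at 300 min. The rule set this petiole pattern from 100 min on but used no leaf tip sample. The leaf tip median of the lower members is −0.34 at 100 min.

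Before 100 min, at time points the rule did not use, no member passed the test on either side of the petiole. At 60 to 80 min, limma called 0 of 114 members at an adjusted p below 0.05 on the abaxial side (background 0.01% of 19963 genes higher and 0% lower in FRtip) and 0 on the adaxial side (background 0.00501% and 0%). At an unadjusted p below 0.05 there were 11 on each side. In the ranking of all 19963 genes by limma, the last of these 11 were TTG2 abaxially, at rank 1431, and AT4G12917 adaxially, at rank 1341. Many genes outside the set therefore passed the same limit, and an excess among the members was not tested. The edgeR quasi-likelihood test also called 0 members. The members' differences in this window lay between −0.55 and 0.66 on the abaxial side and between −0.64 and 0.52 on the adaxial side, so that single differences of that size would have gone unseen.

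In the leaf tip, which the rule did not use, many of the same genes differed over 100 to 180 min. The rule had kept the mean petiole difference small in this window, so the order of tip and petiole is not a result here. In that window limma called 71 of the 114 members, and 14 of 39 higher members were higher in the tip (35.9%, against 12.4% of all genes tested) and 48 of 75 lower members were lower (64.0%, against 16.8%). Against their petiole direction, 5 higher members were lower and 4 lower members were higher in the tip. The median tip difference was 0.26 in the higher and −0.43 in the lower members, beside −0.01 over all genes. Among the genes with a petiole mean of at least 10, 13.4% were higher and 18.9% lower in the tip.

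The sulfate transporter AST56 was among those that were lower in the tip early. Over 100 to 180 min its tip counts had a lowest, median and highest value of 19.5, 36.2 and 52.5 in WL and of 11.3, 19.7 and 31.6 in FRtip (20 samples each), an effect of −0.86 ± 0.14 (SE, limma adjusted p = 2.50e-06). At 300 min its tip counts were 37.8, 21.6, 32.5 and 29.8 in WL and 17.1, 27.4, 28.7 and 24.5 in FRtip, and the groups overlapped. SULTR3;1, in contrast, did not pass the test in the tip in any window, and its counts at 300 min were 25.6, 46.2, 40.7 and 29.8 in WL and 41, 57, 52 and 34.5 in FRtip.

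The largest rise in the tip was that of SNRK2.5, a kinase of the family that acts in osmotic stress and ABA signalling. Its tip counts over 100 to 180 min ran from 1.37 through a median of 6.29 to 19.6 in WL and from 62.7 through 181 to 240 in FRtip, with no overlap (4.56 ± 0.21, adjusted p = 3.72e-26). In the petiole at 300 min the same gene differed by 0.68 and 0.64 only. AT4G19380, a long-chain fatty alcohol dehydrogenase family gene, moved furthest down, from 3.39, 10.06 and 22.3 counts (lowest, median and highest) in WL to 0, 0 and 3.19 in FRtip (−3.07 ± 0.25, adjusted p = 6.04e-16). DIN10, a raffinose synthase-like gene induced by darkness and sugar starvation, ran from 46.4 through 114 to 160.1 in WL and from 6.64 through 27.7 to 50.1 in FRtip (−2.13 ± 0.15, adjusted p = 6.85e-18).

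**Figure D3:**
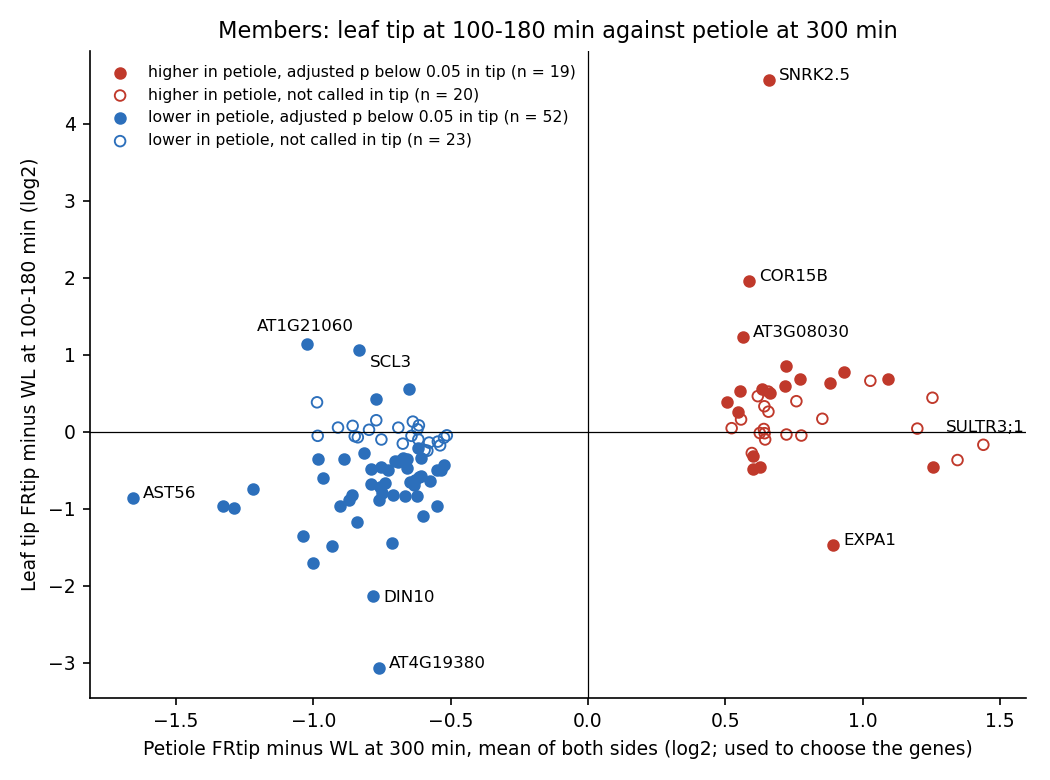
Leaf tip FRtip minus WL over 100 to 180 min (log2) against the petiole difference at 300 min (log2, mean of both sides, used to choose the genes), 1 point for each of the 114 members, filled where limma called the tip difference. Of the 75 lower members 48 are called below 0 in the tip, and of the 39 higher members 14 are called above 0. EXPA1 and SCL3 lie on the opposite side of 0 from their petiole difference.

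At 300 min itself, 38 members were called in the tip, with 8 of 39 higher members higher (20.5%, background 5.25%) and 23 of 75 lower members lower (30.7%, background 5.48%), while 3 and 4 went the opposite way. With only the samples of 300 min in the fit, 22 members were called. At 40 to 80 min, 33 were called. Of the higher members 6 were higher (15.4%, background 4.22%) and of the lower members 18 were lower (24%, background 6.20%), while 4 and 5 went the opposite way. Taking the windows together, 64 of 114 members were called in the tip in their petiole direction before 300 min and 2 at 300 min only. Among these, 5 were also called against the petiole direction in another window (AT3G12320, APT5, ZIFL1, SAHH2 and AT2G48020). SAHH2 and AT2G48020 were the 2 at 300 min only, and both went against their petiole direction at 40 to 80 min. A further 10 were called only against the petiole direction, and 38 members were called in no window. The share of all genes called over joined windows is not given here, so these counts stand without a background. The median tip difference of the lower members was −0.13 at 40 min, −0.34 at 100 min, −0.53 at 180 min and −0.45 at 300 min, and that of the higher members 0.00, 0.14, 0.29 and 0.21.

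**Figure D4:**
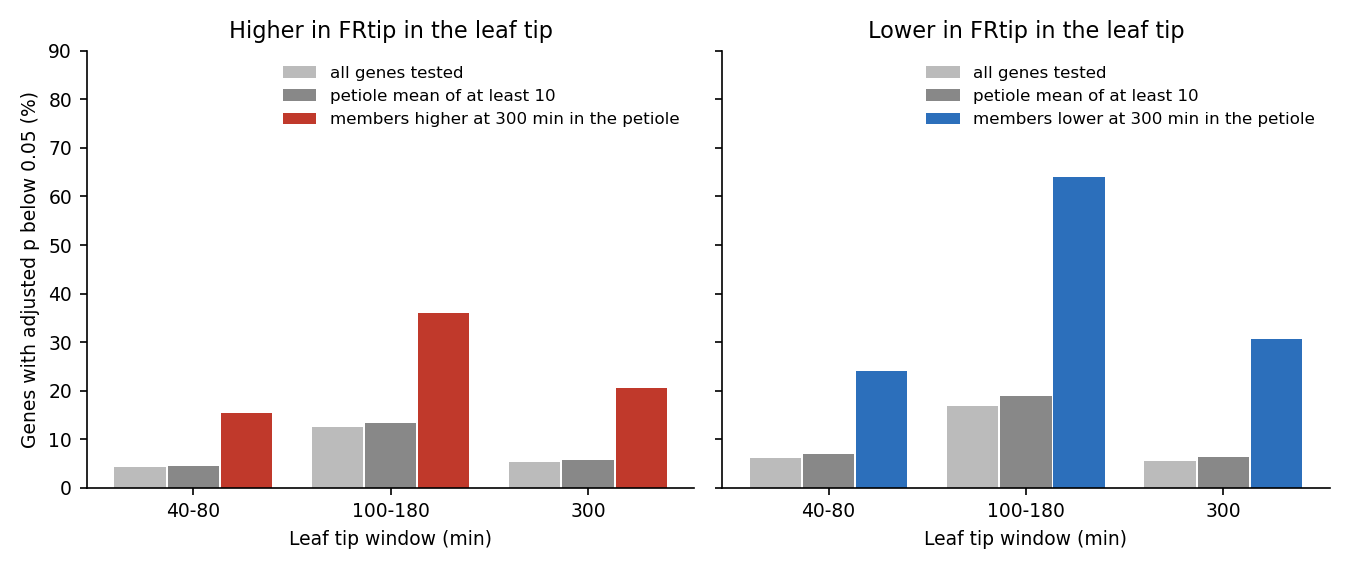
Share of genes (%) called higher or lower in FRtip in the leaf tip by limma at an adjusted p below 0.05, in the windows 40 to 80, 100 to 180 and 300 min, for the members higher or lower in the petiole at 300 min and for all genes tested. At 100 to 180 min 64.0% of the lower members were lower, beside 16.8% of all genes, and 35.9% of the higher members were higher, beside 12.4%.

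Many genes that had also moved earlier in the petiole were called in the tip as well. Among these, which were beyond 0.5 at 300 min on both sides and not flat before, 101 of 175 higher genes were higher in the tip over 100 to 180 min (57.7%) and 128 of 227 lower genes were lower (56.4%). The difference between these shares and those of the members was not tested.

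A minority of members moved in opposite directions in tip and petiole. The expansin gene EXPA1, whose product loosens cell walls, had 220.3, 179.7, 308 and 134 abaxial counts in WL and 484, 458, 435 and 399 in FRtip, and it was higher on both sides (1.14 and 0.65). In the tip it had 557, 769, 639 and 585 counts in WL and 131, 219, 253 and 252 in FRtip at 300 min, a complete separation downwards (−1.61 ± 0.16, limma adjusted p = 1.18e-11), and it was lower over 100 to 180 min as well (−1.47 ± 0.07, adjusted p = 2.10e-25). SCL3, a GRAS regulator of gibberellin responses, did the reverse. Its adaxial counts were 21.2, 13.4, 19.9 and 14.6 in WL and 9.77, 8.82, 6.72 and 11.6 in FRtip, and its tip counts 17.1, 17.3, 14.9 and 15.6 in WL and 54.6, 59.3, 82.1 and 78.9 in FRtip (2.00 ± 0.21, adjusted p = 5.51e-11). Called against the petiole direction in all 3 windows were SCL3, AT1G21060 and AT2G42320, a gene annotated as a nucleolar gar2-like protein. KT1 was lower in the tip at 40 to 80 min (−0.84 ± 0.12, adjusted p = 4.21e-07) and 100 to 180 min (−0.46 ± 0.09, adjusted p = 6.60e-05), and its tip counts at 300 min overlapped, at 108 to 122 in WL and 68.4 to 112 in FRtip.

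**Figure D5:**
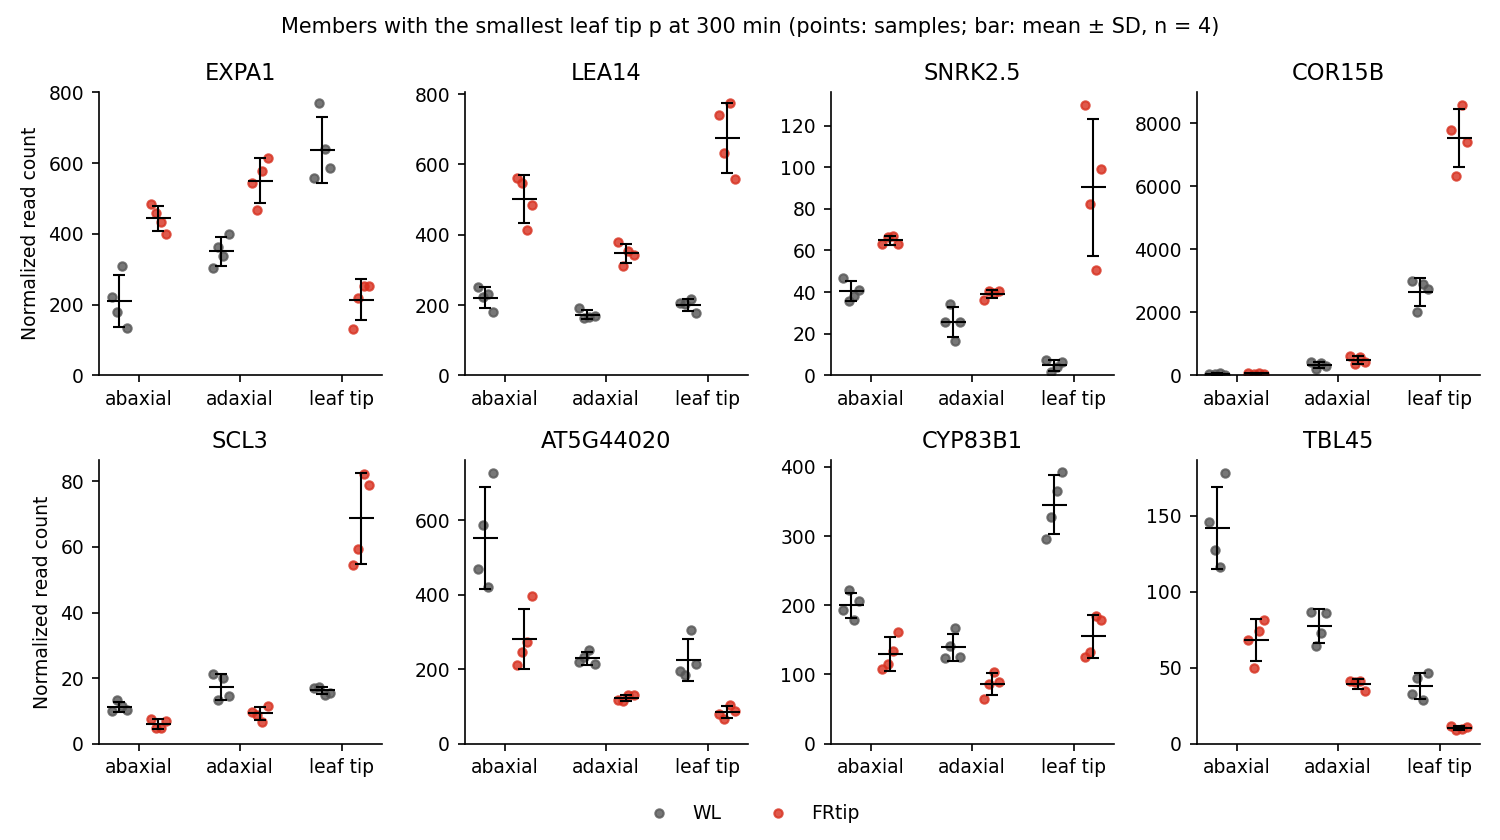
Normalized read counts at 300 min of the 4 members in each direction with the smallest leaf tip p, on the abaxial and adaxial side and in the leaf tip, in WL and FRtip (points: samples; bars: group means). EXPA1 lies above WL in the petiole and below it in the tip, at 131 to 253 against 557 to 769 counts, and SNRK2.5 rises from 1.44 to 7.31 counts in WL to 50.7 to 130 in FRtip in the tip.

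Few tip effects themselves differed between 300 min and 100 to 180 min. The test of that difference called 9 members, with 2 of 39 higher members above 0 and 2 below, and 4 of 75 lower members above 0 and 1 below, against 1.29% and 0.882% of all genes. Without replicate 3 of each group, 5 were called. LEA14 grew further apart late, from 0.68 to 1.74 (difference 1.06 ± 0.21, limma adjusted p = 0.00105), and its tip counts at 300 min were 205, 203, 218 and 176 in WL and 741, 632, 773 and 558 in FRtip. AT3G08030, a DUF642 gene, was higher in the tip early, with 99.6, 131 and 157 counts in WL and 217, 314 and 405 in FRtip (lowest, median and highest), and no longer at 300 min, when 115, 117, 151 and 164 counts stood against 131, 119, 142 and 142. Its effect moved from 1.23 to −0.02 (−1.25 ± 0.14, limma adjusted p = 2.15e-08). In the petiole the rule had chosen the gene for a difference at 300 min and not over 100 to 180 min. AT3G12320 (LNK3), a clock-regulated gene, went from −0.35 to 0.74 (1.09 ± 0.17, adjusted p = 2.80e-05). SAHH2, an enzyme of the methyl cycle, moved by 0.86 ± 0.14 (adjusted p = 4.79e-05) and BAT5, a chloroplast carrier of methionine-derived glucosinolate synthesis, by −1.21 ± 0.31 (adjusted p = 0.0203).

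Of the lower members, 3 were in the list of glucosinolate genes (GTR1, CYP83B1 and MAM1), and several more act in sulfate assimilation or glucosinolate synthesis. Glucosinolates are sulfur-rich mustard oil precursors. Sulfate is taken up by transporters, activated by ATP sulfurylase (APS3) and phosphorylated by APK, and methionine-derived glucosinolates are then built with the help of MAM1, IMD1 and BAT5. AOP2, a side-chain gene of that branch, is annotated as a transcribed pseudogene in this accession. MAM1 and the members APS3, APK, IMD1, BAT5 and AOP2, which were named after their values were seen and belong to no list, were lower in the petiole by 0.50 to 1.13 on the log2 scale on either side. Of the genes of this theme, APS3 still met the rule without each replicate in turn. GTR1, CYP83B1, MAM1, APK, IMD1, BAT5 and AOP2 left the set when some replicate was left out. In the tip at 300 min, APK was at −1.09 ± 0.18 (limma adjusted p = 7.84e-06), APS3 at −1.35 ± 0.24 (3.03e-05), AOP2 at −1.78 ± 0.36 (0.000257), IMD1 at −1.22 ± 0.25 (0.000308) and MAM1 at −0.87 ± 0.28 (0.0340). CYP83B1, of the indole branch, had 296, 328, 365 and 393 tip counts in WL and 125, 132, 185 and 179 in FRtip (−1.16 ± 0.18, 2.57e-06), and its petiole differences were −0.64 and −0.70. The glucosinolate transporter GTR1 was lower in the tip over 100 to 180 min (−0.69 ± 0.07, 1.99e-12) but not called at 300 min.

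The list of 48 glucosinolate loci, taken by symbol, held 31 with a petiole mean of at least 10. Of these, 10 were below −0.5 on both sides at 300 min and 0 were above 0.5, beside 1.91% and 1.35% of all 15851 genes. Besides the members GTR1, CYP83B1 and MAM1, they were CYP79F1, SOT17, FMO GS-OX3, CYP79B2, CYP79B3, BCAT4 and MYB76, which had been beyond 0.15 on a side earlier. CYP79F1 and SOT17 missed the rule narrowly, at −0.151 and −0.155 abaxially. In the tip, 16 of 34 listed genes were lower and 4 higher at 300 min, where 5.48% and 5.25% of all genes were (median −0.73, beside −0.01 over all genes). Over 100 to 180 min 20 were lower and 4 higher, where 16.8% and 12.4% of all genes were.

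The members higher in FRtip held LEA14 and PP2CA of the ABA list, COR15B of the cold list and, outside the lists, SNRK2.5. PP2CA, a phosphatase that ABA induces, was higher on both sides (0.65 and 0.62), and in the tip it was higher in all 3 windows, with 280.4, 227, 244 and 265 counts in WL and 451, 329, 402 and 420.2 in FRtip at 300 min (0.65 ± 0.14, limma adjusted p = 0.000383). The cold-regulated chloroplast protein gene COR15B had tip counts of 3000.0, 2006, 2894 and 2734 in WL and 7803, 6343, 8567 and 7401 in FRtip (1.51 ± 0.21, 1.56e-07), while its petiole groups overlapped on both sides. ERD5, a proline dehydrogenase in the ABA list, was lower in the petiole (−0.97 and −0.71). Of 61 ABA-response genes with a petiole mean of at least 10, 9 were above 0.5 and 4 below −0.5 on both sides, beside 1.35% and 1.91% of all genes with that mean, the higher ones including RD20 (1.47 and 1.15) and LTI78 (1.22 and 1.37). In the tip at 300 min 32 of 78 were higher and 1 was lower, beside 5.25% and 5.48% of all genes. Of 35 cold genes tested in the tip, 14 were higher at 300 min, beside the same 5.25%.

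Of the ethylene list, the response factor EBP was a member, higher on both sides of the petiole. EBP did not pass the test in the tip at 300 min, with 82.9, 190.5, 97.6 and 104 counts in WL and 81.9, 180.3, 99.9 and 111 in FRtip. Of 31 ethylene genes with a petiole mean of at least 10, 8 were above 0.5 on both sides and 1 was below −0.5, beside 1.35% and 1.91% of all genes with that mean, and the receptors ERS1, ERS2 and ETR2 had differed earlier too. SAM-2, which makes the S-adenosylmethionine that ethylene synthesis starts from, was higher at 1.00 and 0.55, and SAHH2 at 0.75 and 0.54. Both have near-identical paralogs, so that their counts are uncertain.

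Members of other lists were few, and the counts of their genes beyond 0.5 on both sides stand beside 1.35% of all genes above and 1.91% below. GA2OX2, which inactivates gibberellin, was lower at −0.58 and −0.70 and was at most 7 reads in any tip sample of 300 min. In its gibberellin list 1 of 16 genes was above 0.5 and 1 below −0.5. COL2, a CONSTANS-like gene, and AT3G12320 belong to the clock list, in which 3 of 33 genes were below −0.5 on both sides. DIN10 and the cytosolic invertase CINV2 belong to the sugar list (2 of 67 above and 5 below). The wax biosynthesis enzyme KCS9 (−0.75 and −0.59) was the only member of the cutin and wax list (2 of 46 above and 1 below). The trichome regulator TTG2 (−0.53 and −0.64) was the only one of the defence list (3 of 92 above and 6 below). STOMAGEN, a peptide that promotes stomata (−0.54 and −0.50), was the only one of the signalling peptide list (2 of 20 above and 1 below). In the tip, STOMAGEN had 116, 109.7, 139.7 and 93.4 counts in WL and 73.4, 89, 83.5 and 76.7 in FRtip at 300 min. The nutrient transport list (3 of 52 above and 7 below) held AST56, SULTR3;1, GTR1 and AT2G26690 (NPF6.2, of the nitrate transporter family, 0.66 and 0.62). HB2 matched the light quality list (2 of 61 above and 3 below) by symbol, but the locus encodes a haemoglobin. EXPA1 was the only member of the cell wall list, in which 6 of 100 genes were above 0.5 and 7 below −0.5 on both sides. The auxin list, with 10 of 92 genes above 0.5 on both sides, held no member.

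In WL the members lay on either side of the petiole. Over 60 to 180 min, 18 higher members were higher abaxially and 15 adaxially, and 37 lower members were higher abaxially and 20 adaxially, where 31.6% and 33.6% of all genes were. The MFS transporter gene AT3G05400 had a lowest, median and highest count of 9.81, 20.3 and 41.8 abaxially and 1.18, 5.06 and 11.4 adaxially in 28 samples each (1.88 ± 0.12, limma adjusted p = 1.20e-19). AT2G21550, annotated as a dihydrofolate reductase-thymidylate synthase, and TTG2 were also higher abaxially, by 1.75 ± 0.11 and 1.65 ± 0.09. On the adaxial side the higher ones were COR15B, with 1.71, 15.2 and 69.6 counts against 0, 2.43 and 16.4 abaxially (−2.36 ± 0.19), the bHLH gene AT3G61950, with 52.8, 74.9 and 128 against 10.8, 16 and 32.3 (−2.08 ± 0.09), and AT1G50732 (−1.52 ± 0.08).

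Between tissues in WL, 9 higher and 29 lower members were higher in the leaf tip, where 37.6% of all genes were, and 25 higher and 43 lower members were higher in the petiole, where 46.4% were. The rule held members to a floor on petiole counts, and of all genes above that floor 38.1% were higher in the tip and 47.7% in the petiole. SPP2, a sucrose-phosphatase, had 151, 230.1 and 356 counts in the tip (lowest, median and highest of 28 samples) against 2.67, 7.35 and 13.7 abaxially (4.19 ± 0.09 against both sides). COR15B, at 5.04 ± 0.14, and AT1G50732, at 2.74 ± 0.06, were the other members highest in the tip. AT5G22580, a stress-responsive barrel protein gene, had 1299.8, 1833 and 2536 counts abaxially and 8.45, 18.9 and 32 in the tip (−6.24 ± 0.09), and AT3G23930 was at −5.10 ± 0.13. The bHLH gene AT5G65320 had 0 reads in all 28 tip samples and a mean of 26.7 counts in 56 petiole samples, which was at least 5.35-fold lower in the tip when 3 reads per library are taken as the floor.

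With time alone, in WL, more of the lower members fell than rose in the tip between 100 to 180 min and 300 min. Of 75 lower members 18 fell and 2 rose, beside 11.5% and 9.57% of all genes, and of 39 higher members 7 fell and 6 rose. The median change was −0.38 in the lower and 0.00 in the higher members. AT3G12320 fell by 3.56 ± 0.12 on the log2 scale (limma adjusted p = 5.12e-32) and COL2 changed by −2.94 ± 0.10 (3.29e-31), COR15B rose by 3.13 ± 0.16 (1.75e-23), and SULTR3;1 fell by 0.91 ± 0.14 (3.28e-07). The WL samples of 300 min serve in both this contrast and the FRtip contrast of the tip.

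By annotation 109 of the members encode proteins, 3 are non-coding RNAs and 2 (AOP2 and AT1G28620) are transcribed pseudogenes, and 54 carry a symbol. A single pair of members, AT5G57785 and AT5G57790, was adjacent. Another gene overlapped 32 members, on the same strand in 3 of them (AT5G44020 with CESA4, NAP1;4 with AT3G13780 and HINT3 with LCR1), and the libraries were strand-specific per the labels, but whether strand was used in counting is not given in the sources used here.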

How the data were processed

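RNA was measured in 204 samples of Col-0 leaves, grouped by tissue, treatment and time point from the labels. As signal, the authors deposited DESeq2-normalized read counts per TAIR10 gene, that is, counts divided by 1 size factor per sample, from strand-specific BrAD-seq libraries. The submitters' processing notes name FastQC, STAR, Picard, HTSeq and DESeq, with no versions. Dividing by what 1 read was worth in a sample turned 100% of values into whole numbers (tolerance 0.001 reads), which gave the reads for count tests. The 5 petiole samples of 40 min were left out.

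Differences were tested on log2(normalized count + 1) with limma 3.58.1 in R 4.3.3, two-sided, with Benjamini-Hochberg adjustment over 19963 genes whose mean reached 1, and 1 mean for each treatment and time point of a tissue. The contrasts were FRtip against WL in the leaf tip at 40 to 80, 100 to 180 and 300 min, the last minus the second, FRtip against WL in the petiole at 60 to 80 min, and, in WL, side, tissue and time in the tip. The window of 60 to 180 min holds 7 time points. It had been written down as 6. The p-values measure the spread between replicate samples. The scripts were tested on simulated data. Other settings tried were pseudocounts of 0.5 and 5, a minimum mean of 10, no filter, median centring, a replicate block, leaving out each replicate, only the contrast's own groups, edgeR 4.0.16 and DESeq2 1.42.0 on the reads, and other thresholds of the rule.

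Genes named are, in each direction, the 8 with the largest petiole difference, the members of the lists, the 4 with the smallest tip p at 300 min, the 4 with the smallest p for its change, the 3 most extreme by side and by tissue in WL, and those beside the thresholds. Other genes were named after their values were seen, among them AT4G19380, AT2G42320, APS3, APK, IMD1, BAT5, AOP2, SAM-2 and the list genes that are not members. The members and lists were chosen with earlier results of these data known, and list members were found by symbol or synonym. Symbols and positions came from RefSeq's annotation of TAIR10.1, which held 32835 of the 33602 loci. Upstream bases were read from that assembly. A floor of 3 reads covers counting error only. A member gene and an upstream sequence are not reported here.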

Additional observations from a re-analysis of the deposited data

Results flagged for a closer look

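At 300 min, 132 groups of 4 samples were searched for a sample far from the other 3, over the 22 members whose counts were examined in every sample. Dixon's test marked 10 samples, and chance marks about 1 in 20 groups. AST56 had 7.58 normalized counts in abaxial FRtip replicate 3 (others 13.2 to 14.1), 26.3 in adaxial WL replicate 4 (others 27.7 to 27.9) and 12.6 in adaxial FRtip replicate 2 (others 7.82 to 8.39). In the leaf tip, AT5G57785 had 1.30 in WL replicate 4 and 1.37 in FRtip replicate 3, where the others were at 0, and each of these is 1 read. AT5G14230 had 5.77 in leaf tip WL replicate 2 (others 2.44 to 2.71). LEA14 had 191 in adaxial WL replicate 1 (others 164 to 168), and TBL45 had 34.8 in adaxial FRtip replicate 4 (others 40.3 to 41.1). AT3G61980 had 5.13 in adaxial WL replicate 3 (others 10.2 to 11.1), and AT3G08030 had 321 in abaxial FRtip replicate 4 (others 302 to 304).

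The leaf tip effect of FRtip at 300 min differed from that at 100 to 180 min in 9 members by limma's test of the difference. It was smaller at 300 min, or more negative, in AT3G08030 (−1.25), BAT5 (−1.21) and AT3G61980 (−1.85). It was larger in AT3G12320 (1.09), SAHH2 (0.86), LEA14 (1.06), COL2 (0.73), ZIFL1 (1.29) and SCL3 (0.94), of which AT3G12320, COL2 and ZIFL1 had been lower in the tip over 100 to 180 min.

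In 3 members the petiole samples in FRtip were all on one side of those in WL and the leaf tip samples all on the opposite side at 300 min, a difference between tissues that was not tested. In the tip alone, FRtip lay entirely above WL in 7.53% of all genes tested and entirely below in 7.44%. The rule favoured separation in the petiole, and the share of all genes with both is not given here. The log2 ratio of the leaf tip means, with 1 added to each, was −1.57 for EXPA1 and −0.40 for AT2G42320, which were higher in the petiole, and 2.02 for SCL3, which was lower there.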

How the results depend on the processing

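Membership depended on the thresholds and on the replicates. The rule gave 114 genes, 33 with a late difference beyond 0.7, 61 with early differences of at most 0.10 and 233 with at most 0.25. Leaving out each replicate in turn gave 84 to 117 genes, of which 57 to 74 were among the 114, and 29 members (15 higher and 14 lower) met the rule in all 4 cases. Among them were AST56, SULTR3;1, KT1, LEA14 and EXPA1, but not BXL1, EBP, PIF3, SCL3, SNRK2.5 or COR15B. Of these 29, a comparison chosen after the data were seen, 7 of 15 were higher and 12 of 14 lower in the leaf tip over 100 to 180 min. Of all genes 12.4% were higher and 16.8% lower there, and 2 and 1 of these members went the opposite way. At 300 min 5 of 15 were higher and 6 of 14 lower (5.25% and 5.48% of all genes), while 1 and 0 went the opposite way. At 40 to 80 min the counts were 3 and 6 (4.22% and 6.20%), while 2 and 1 went the opposite way.

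In the leaf tip, 38 members were called at 300 min in the fit over all time points and 22 with only the samples of 300 min, and leaving out a replicate gave 28 to 38. Over 100 to 180 min the range was 60 to 69 (71 with all replicates), and at 40 to 80 min it was 27 to 28 (33). The change of the tip effect had 9 calls and 5 to 7 without a replicate, the fewest without replicate 3. Calls in WL ran from 84 to 93 by side (90), from 103 to 105 by tissue (106) and from 27 to 31 by time (33), and the petiole at 60 to 80 min gave 0 in each fit. With the replicate block the counts were 39, 72 and 33 for the tip at 300, 100 to 180 and 40 to 80 min, 11 for the change, 0 on both petiole sides, and 91, 106 and 33 in WL. Same-numbered samples correlated by a median of 0.08 in the tip, with 11 of 35 pairs over 0.1, and of 0.16 on both petiole sides, with 24 of 32 abaxial and 27 of 32 adaxial pairs over 0.1, where differently numbered samples had medians of −0.02, −0.06 and −0.05. Since not every pair was over 0.1, the numbers were not taken to pair the samples, although most petiole pairs were over 0.1. Between tissues, same-numbered tip and petiole samples correlated by a median of 0.07 abaxially and 0.09 adaxially. Differently numbered ones had medians of −0.02 and −0.03. The test by side likewise did not pair the abaxial and adaxial samples. The edgeR counts were 37, 73, 36 and 9 for the tip contrasts and those of DESeq2 35, 71, 33 and 9. Of 350 values of named genes under alternatives, 337 kept their direction and call and 13 lost the call, all in the change of the tip effect (LEA14, AT3G61980, COL2, ZIFL1 and SCL3), and the cause was not tested. The contrasts were the tip at 300 min, its change, and side and tissue in WL. Each gene had been picked for a small p or a large called difference in the same contrast, which favoured a kept call. Genes named for the tip before 300 min were not followed singly. DESeq2 gave no adjusted p for AT3G61980.

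Depth limits members such as PGL5 and AT5G57785, whose groups hold samples with under 10 reads, and a log2 difference with 1 added understates changes at such counts. The last 2 time points lie 120 min apart, so when the members moved between 180 and 300 min is not known.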

Other observations

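The non-coding members did not all behave alike. The lncRNA AT1G75295 had 66.7, 70.3, 67.1 and 61.7 normalized counts in the abaxial petiole in WL at 300 min and 129, 114, 104 and 90 in FRtip, without overlap, while its leaf tip counts overlapped, at 57.0 to 81.7 in WL and 54.5 to 76.8 in FRtip. The ncRNA AT4G12917 was lower in the petiole (−0.82 abaxially and −0.58 adaxially). In the tip at 300 min it had 151, 125.5, 139.7 and 130 counts in WL and 102, 105, 110 and 74.5 in FRtip. That difference did not pass the test (−0.49 ± 0.20, limma adjusted p = 0.114). Over 100 to 180 min it was lower in the tip by limma (−0.38 ± 0.09, adjusted p = 0.000467). The lncRNA AT5G01542, at 3.83 to 8.56 counts in WL petioles, overlapped between treatments on both sides.

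NAS4, which makes the metal chelator nicotianamine, was lower without overlap in all 3 tissues at 300 min. Its counts were 50.9, 54.3, 48 and 65.5 in WL and 34.8, 34.1, 28.3 and 37.2 in FRtip abaxially, and 24.9, 25.8, 28.5 and 39.5 against 20.5, 11.3, 16.8 and 21.9 adaxially. In the tip they were 7.31, 8.66, 13.6 and 6.49 in WL and 0, 4.56, 2.74 and 1.11 in FRtip, which rest on at most 10 reads a sample (−1.91 ± 0.43, limma adjusted p = 0.00118). These genes were chosen for mention after their values were seen.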
